A study of Homo sapiens with 6 samples.

Results

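The 9 genes described here are the 4 ID genes (ID1, ID2, ID3 and ID4) and 5 genes that respond to or restrain SMAD signalling (SMAD6, SMAD7, SKIL, BAMBI and TGFBI). They were picked by symbol, and all 9 had a row among the 25548 gene rows of the deposited table. Expression was measured by RNA sequencing of total RNA in A375, an established human melanoma line that carries mutant BRAF, grown in DMEM with serum. Of 6 samples, 3 received 1 µM BMH-21, an inhibitor of RNA polymerase I, the polymerase of the ribosomal RNA genes, for 6 h, and 3 were controls that received the solvent DMSO. The controls are titled 0 h, so the drug and 6 h of further culture cannot be told apart, and "with BMH-21" covers both.

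The table gave values in FPKM, fragments scaled by transcript length and by library size, in 3 columns a group. These are titled as replicates, but in 99.9% of the rows with no 0 among them, in control and BMH-21 alike, column 1 sat midway between column 2 and column 3. Column 1 was therefore taken as the group's estimate, with column 2 as its lower and column 3 as its upper bound, at a confidence level not given in the sources used here. There is no spread between replicates and no p-value below, and the sequencing depth is unknown. Intervals are called separate where the whole interval of one group lay above that of the other, a description that does not replace a test over replicates. Rows with an estimate of 1 FPKM or more in either group, 13074 in number, are called measured, and all 9 members were among them. The melanoma label was checked against 11 markers of the melanocyte lineage: SOX10, a transcription factor of that lineage, was at 97.0 FPKM in control and 90.0 FPKM with BMH-21, while 5 of the 11, namely TYR and the other pigment genes on the list, stayed below 1 FPKM with and without the drug. Of the 6 measured markers, MITF and S100B had separate intervals, both lower with BMH-21, MITF at 5.31 FPKM against 8.06 FPKM in control. Over all measured rows, 3.41% were lower with separate intervals. Estimates of 5 of the 6 lay below control, as did 44.6% of all measured rows. The targeted process, RNA polymerase I transcription, was not measured. All 7 p53 targets listed to check the treatment were higher with separate intervals, against 4.08% of all measured rows. Among them, MDM2 was at 315 FPKM against 34.6 FPKM in control. These 7 were listed with earlier results of these data known, so the count is description only.

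ID proteins carry a helix-loop-helix domain but no basic region, so they pair with E proteins and other basic helix-loop-helix factors and keep them off DNA. Bone morphogenetic proteins (BMPs) induce ID genes through SMAD1, SMAD5 and SMAD9, while TGF-beta and activins act through SMAD2 and SMAD3, and SMAD4 is common to both arms. Both arms switch on their own restraints. SMAD6 and SMAD7 are inhibitory SMADs that block receptors, SKIL (SnoN) is a co-repressor of SMAD complexes and BAMBI is a decoy receptor without a kinase domain. TGFBI is a secreted matrix protein named for its induction by TGF-beta.

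The promoter windows of the 4 ID genes and SMAD6 are shown because the ID genes went in different directions and because SMAD6 alone among the members held a palindromic SMAD element. Each runs from 250 bases before to 50 bases after the RefSeq start (GRCh38.p14), 5′ to 3′ on the gene's strand. Capitals mark matches to any of 5 motifs searched on both strands.
ID1 (chr20:31605039-31605338, plus strand): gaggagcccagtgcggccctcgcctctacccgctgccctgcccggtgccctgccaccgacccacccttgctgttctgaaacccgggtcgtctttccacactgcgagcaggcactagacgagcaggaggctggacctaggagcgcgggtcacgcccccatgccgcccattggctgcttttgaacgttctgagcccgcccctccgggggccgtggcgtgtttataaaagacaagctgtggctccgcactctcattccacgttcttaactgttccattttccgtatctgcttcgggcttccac
ID2 (chr2:8681806-8682105, plus strand): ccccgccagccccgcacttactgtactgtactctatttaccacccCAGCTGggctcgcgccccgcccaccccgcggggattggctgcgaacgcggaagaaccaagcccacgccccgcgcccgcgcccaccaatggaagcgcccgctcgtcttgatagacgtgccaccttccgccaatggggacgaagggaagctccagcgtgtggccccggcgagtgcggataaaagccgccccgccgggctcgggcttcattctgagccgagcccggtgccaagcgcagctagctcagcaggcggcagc
ID3 (chr1:23559452-23559751, minus strand): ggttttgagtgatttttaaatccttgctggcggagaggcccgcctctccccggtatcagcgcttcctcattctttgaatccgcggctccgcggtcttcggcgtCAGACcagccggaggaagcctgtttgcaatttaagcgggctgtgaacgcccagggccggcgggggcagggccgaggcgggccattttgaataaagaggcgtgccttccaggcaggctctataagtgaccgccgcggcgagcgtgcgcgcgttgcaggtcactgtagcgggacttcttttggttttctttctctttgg
ID4 (chr6:19837120-19837419, plus strand): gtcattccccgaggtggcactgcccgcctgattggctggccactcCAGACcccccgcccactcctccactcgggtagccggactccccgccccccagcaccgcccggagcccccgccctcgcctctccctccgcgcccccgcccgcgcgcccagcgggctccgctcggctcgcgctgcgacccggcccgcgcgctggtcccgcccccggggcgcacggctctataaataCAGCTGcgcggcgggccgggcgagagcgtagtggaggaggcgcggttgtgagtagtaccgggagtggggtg
SMAD6 (chr15:66701986-66702285, plus strand): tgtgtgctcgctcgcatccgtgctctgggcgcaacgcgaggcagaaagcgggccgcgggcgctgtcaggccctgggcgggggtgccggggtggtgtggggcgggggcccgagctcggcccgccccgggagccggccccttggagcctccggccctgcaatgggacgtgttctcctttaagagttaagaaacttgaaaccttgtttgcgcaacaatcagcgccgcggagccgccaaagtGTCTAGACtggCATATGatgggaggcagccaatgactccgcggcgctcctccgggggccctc
The motifs were CANNTG (the E-box, bound by basic helix-loop-helix dimers), GGCGCC (a GC-rich SMAD element), GTCTAGAC (the palindromic SMAD element), CAGAC (the SMAD box) and TGACGTCA (the cAMP response element). None of them overlaps another in the windows printed. An E-box was found in 68.9% of all 27305 windows and a SMAD box in 45.0%, so matches to these are common. In the windows of measured genes the shares were 59.3% and 42.4%. A match is only a match of letters, not a site shown to be bound, and elements outside these windows were not searched.

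Of the 9 members, ID2 was higher with BMH-21 with separate intervals, ID1 and ID4 were lower, and the other 6 overlapped. Over all 13074 measured rows, 4.08% were higher and 3.41% lower with separate intervals, together 7.5%, a split that turned to more lower than higher rows under each of 3 other scalings. The members' median log2 difference, taken as log2(FPKM + 1) with BMH-21 minus control, was -0.09, against 0.04 over all measured rows. The members thus split by gene and did not share a direction, with 4 estimates above control and 5 below. Of all measured rows, 44.6% had estimates below control. No member reached a 2-fold difference on the log2(FPKM + 1) scale, which 2.36% of measured rows did.

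**Figure D1:**
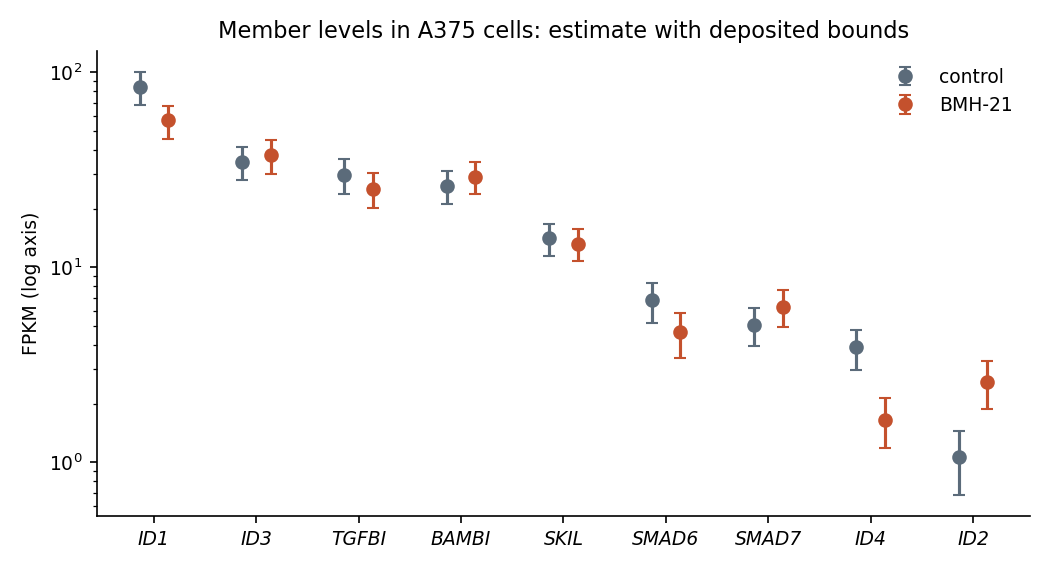
FPKM estimates of the 9 members on a log axis in control (grey) and BMH-21 (orange), with bars for the authors' lower and upper bounds. The bars of ID1, ID4 and ID2 do not overlap between the groups, ID1 by the narrow margin of 0.599 FPKM, while those of the other 6 members do.

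ID1 was the highest member in both groups, at 84.5 FPKM (bounds 68.2 to 101) in control and 56.7 FPKM (bounds 45.8 to 67.6) with BMH-21. Its estimate was 1.49-fold lower with BMH-21, and the intervals were separate but nearly touched. The log2 difference was -0.57 ± 0.39, with a half-width built from the bounds of control and BMH-21 together. A scaling of the BMH-21 values by 1.01 would have made the intervals meet, so the call for ID1 rests on the authors' scaling to within that factor. Its promoter window, printed above, held none of the 5 motifs.

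ID4 had the largest difference of the 9 members on the log2(FPKM + 1) scale, although the fold of ID2 was larger. It was at 3.88 FPKM (bounds 2.97 to 4.80) in control and 1.66 FPKM (bounds 1.19 to 2.13) with BMH-21. It was 2.34-fold lower, with a gap of 0.840 FPKM between the intervals. On the log2(FPKM + 1) scale the difference was -0.88 ± 0.38, and 2.91% of measured rows had a larger one in either direction. ID4 can pair with the other ID proteins and oppose them in some settings. Its window held 1 E-box, 21 bases before the start, and 1 SMAD box.

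ID2 was the lowest member in control, at 1.06 FPKM (bounds 0.684 to 1.44), and ranked just above ID4 with BMH-21, at 2.59 FPKM (bounds 1.89 to 3.29). It was 2.44-fold higher, with a log2 difference of 0.80 ± 0.39, and 3.40% of measured rows had a larger difference in either direction. At this low level the pseudocount of 1 shrinks the difference, which was 1.28 as a log2 ratio of the estimates. The ID2 bounds were also the widest of the members in control, 35.7% of the estimate to either side. Its window held 1 E-box, 205 bases before the start, with the same letters as that of ID4, CAGCTG.

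ID3, the second most abundant ID transcript, was at 34.7 FPKM (bounds 28.0 to 41.5) in control and 37.6 FPKM (bounds 30.2 to 45.0) with BMH-21. The intervals overlapped over most of their length, and the log2 difference of 0.11 ± 0.39 was smaller than its half-width. ID1 and ID3, which are often induced together by BMPs, therefore had estimates on opposite sides of control, and ID1 went from 2.43 times the level of ID3 to 1.51 times. Whether the difference of ID1 differs from that of ID3 was not tested.

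Summed over the 4 ID genes, estimates came to 124 FPKM in control and 98.6 FPKM with BMH-21. The sums of the lower and upper bounds ran from 99.9 to 148 FPKM in control and from 79.1 to 118 FPKM with BMH-21, and so overlapped. ID1 gave 68.0% of the control sum and 57.5% of the BMH-21 sum, ID3 28.0% and 38.2%, ID4 3.13% and 1.68%, and ID2 0.856% and 2.63%. The ID pool was thus carried by ID1 and ID3 in both groups, and the genes with the largest relative differences, ID2 and ID4, were minor parts of it. ID4 stood at 3.66 times the level of ID2 in control and at 0.640 times with BMH-21. In bulk RNA, fewer cells that express a gene and less RNA per cell cannot be told apart.

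The E proteins that ID proteins sequester were lower in estimate as well, with overlapping intervals. TCF12 (HEB), the most abundant of them, was at 48.2 FPKM (bounds 39.5 to 57.0) in control and 38.1 FPKM (bounds 31.2 to 44.9) with BMH-21. TCF3 (E2A) was at 14.5 FPKM against 12.5 FPKM with BMH-21, and TCF4 (E2-2) at 3.05 FPKM against 2.53 FPKM with BMH-21. Their sum went from 65.8 to 53.1 FPKM, so that the ratio of summed ID to summed E protein estimates was 1.89 in control and 1.86 with BMH-21. This is a ratio of transcripts and says nothing of protein.

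**Figure D2:**
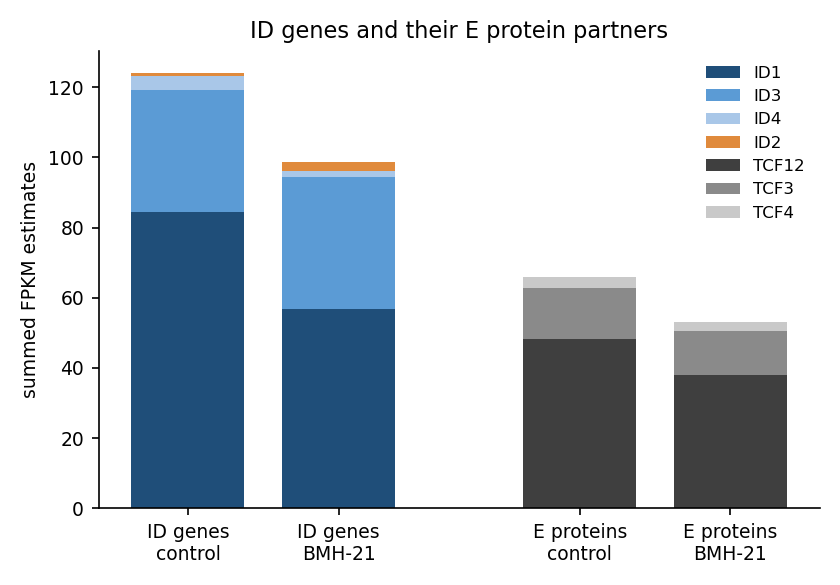
Stacked bars of summed FPKM estimates for the 4 ID genes and for the E protein genes TCF12, TCF3 and TCF4, in control and with BMH-21. The ID stack stands at 124 against 98.6 FPKM and the E protein stack at 65.8 against 53.1 FPKM, and ID1 makes up most of the ID stack in both groups.

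Of 15 listed basic helix-loop-helix partners, 8 were measured, of which 7 had estimates below control and 1 was higher with separate intervals. Among all measured rows, 44.6% had estimates below control and 4.08% were higher with separate intervals. The higher gene was NEUROG2, a neurogenic factor that works with E proteins, at 3.26 FPKM with BMH-21 (2.46 to 4.05) and 1.17 FPKM in control (0.802 to 1.54). The lowest differences were those of LYL1, a blood lineage factor, at 1.39 FPKM against 2.49 FPKM in control, and HAND2, a heart and neural crest factor, at 1.83 FPKM against 2.70 FPKM in control. Both overlapped, although the log2 differences of LYL1 (-0.55 ± 0.39) and HAND2 (-0.39 ± 0.36) exceeded their half-widths. TWIST1, a neural crest factor, was at 11.6 FPKM in control and 10.2 FPKM with BMH-21. The list's median log2 difference was -0.20, against 0.04 over all measured rows. Without the filter on low values it was -0.08, against 0 over all rows.

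The inhibitory SMADs parted in estimate. SMAD6, which acts mainly on BMP receptors, was at 6.78 FPKM (bounds 5.19 to 8.36) in control and 4.64 FPKM (bounds 3.42 to 5.86) with BMH-21, 1.46-fold lower. SMAD7, which blocks BMP and TGF-beta receptors alike, was at 5.09 FPKM (bounds 3.97 to 6.21) in control and 6.30 FPKM (bounds 4.92 to 7.67) with BMH-21, 1.24-fold higher. The intervals of SMAD6 overlapped by 0.665 FPKM and those of SMAD7 by 1.29 FPKM. The log2 difference of SMAD6 (-0.46 ± 0.43) was just larger than its half-width, as it was for 14.9% of measured rows in either direction, while that of SMAD7 (0.26 ± 0.38) was not. SMAD6 stood above SMAD7 in control and below it with BMH-21, but in each group their intervals overlapped.

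SMAD6 was the member with the palindromic SMAD element, GTCTAGAC, 12 bases before the start, and an E-box that begins 1 base before the start. That element was found in 0.201% of all promoter windows and 0.150% of the 8693 windows of measured genes. The SMAD7 window held 2 SMAD boxes and 1 E-box and was the poorest of the members' in G and C, at 48.3% against a median of 65.3% over measured genes.

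The remaining restraints and TGFBI differed little. SKIL was at 14.1 FPKM (bounds 11.5 to 16.7) in control and 13.2 FPKM (bounds 10.7 to 15.7) with BMH-21, a log2 difference of -0.09 ± 0.36. BAMBI was at 26.3 FPKM (bounds 21.2 to 31.3) in control and 29.3 FPKM (bounds 23.7 to 34.8) with BMH-21. TGFBI was at 29.8 FPKM (bounds 23.8 to 35.8) in control and 25.3 FPKM (bounds 20.1 to 30.5) with BMH-21. All 3 intervals overlapped broadly, with log2 differences below their half-widths, which does not show equal levels: the half-widths of 0.36 to 0.41 leave room for differences of that size in either direction. The SKIL window held the members' only cAMP response element, found in 1.98% of all windows and 3.32% of those of measured genes. BAMBI, the richest in G and C at 80.0%, held 3 of the members' 5 GC-rich SMAD elements, a motif in 19.0% of all windows and 31.1% of those of measured genes.

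**Figure D3:**
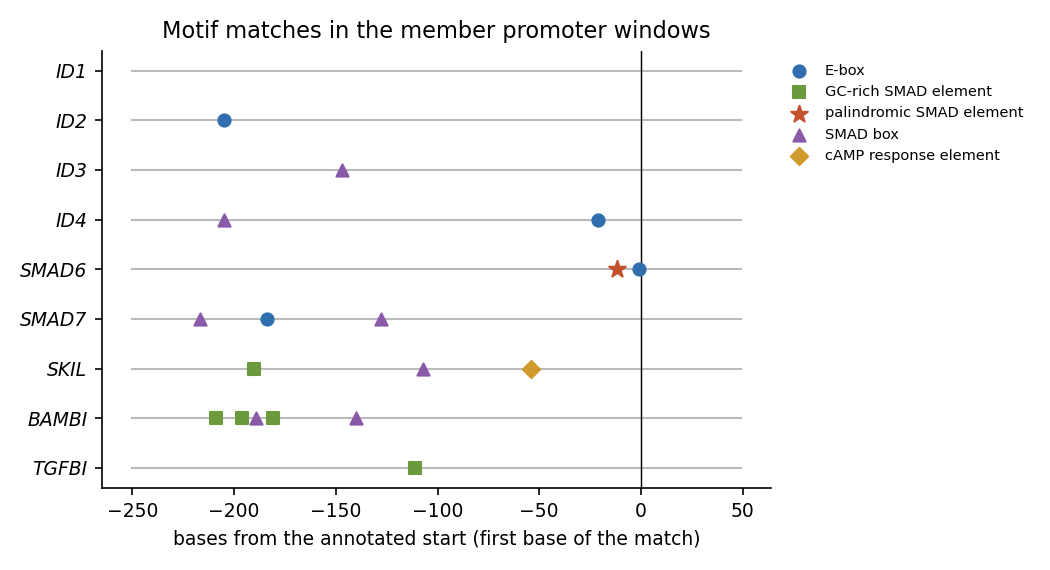
Positions of motif matches in the promoter windows of the 9 members, in bases from the annotated start (vertical line), by motif. ID1 has no match, BAMBI has 3 GC-rich SMAD elements and SMAD6 has the only palindromic element, 12 bases before its start.

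In order of level in control, ID1 came first, then ID3, TGFBI and BAMBI, which overlapped each with the next, then SKIL, and then SMAD6, SMAD7 and ID4, which again overlapped each with the next, with ID2 last. With BMH-21 the order was ID1, then ID3, BAMBI and TGFBI overlapping each with the next, SKIL, then SMAD7 and SMAD6 overlapping, and last ID2 and ID4 overlapping. The order changed in 3 neighbouring pairs: BAMBI and TGFBI, SMAD6 and SMAD7, and ID2 and ID4. Of these, ID2 and ID4 were apart beyond their bounds in control and not with BMH-21. The levels spanned the measured range, ID1 lying above 92.4% of measured rows in control and ID2 above 3.13%.

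**Figure D4:**
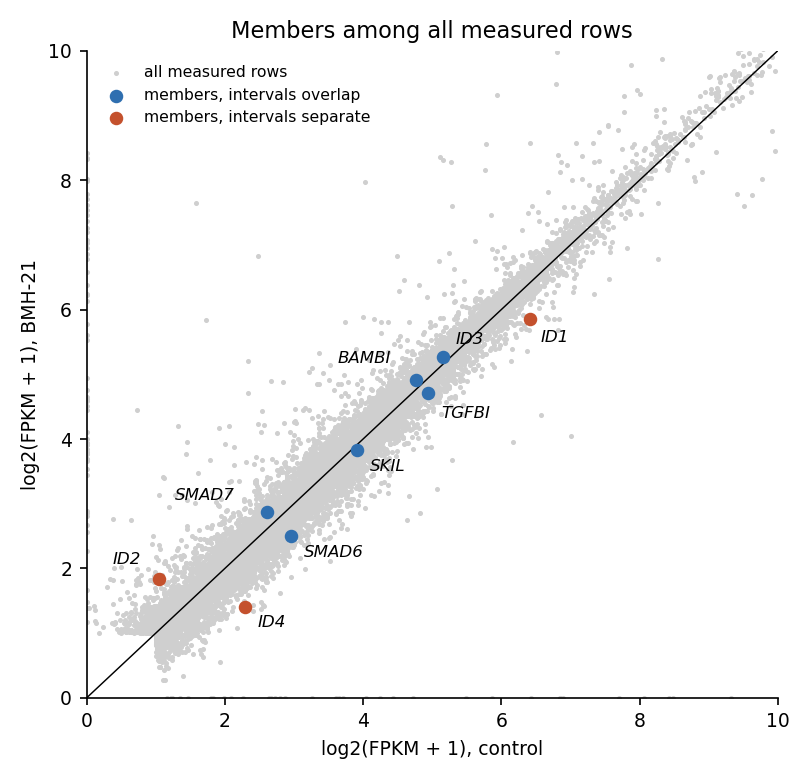
log2(FPKM + 1) with BMH-21 against log2(FPKM + 1) in control for all measured rows (grey) and the 9 members (coloured by whether their intervals were separate), with the line of equal values. Rows beyond the axis limits are not drawn. ID1 and ID4 lie below the line at -0.57 and -0.88 and ID2 above it at 0.80, and the other members lie nearer to it. Larger differences in either direction were found in 7.34% of measured rows for ID1, 2.91% for ID4 and 3.40% for ID2.

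By distance in the 2 values log2(FPKM + 1) in control and with BMH-21, the measured rows nearest to ID4 were TMEM59L (distance 0.09), the uncharacterised LOC144481 (distance 0.12) and E2F2, which drives S-phase genes (distance 0.14). TMEM59L was at 3.83 FPKM in control and 1.84 FPKM with BMH-21. With only 2 conditions such likeness means only a like level and a like difference.

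The rest of the pathway was described by 9 lists from textbook knowledge, drawn up with earlier results of these data known. They hold 132 genes, 77 of them measured, and share a few. Of these 77, 10 were higher with separate intervals and 3 lower, 16.9% in all against 7.5% of measured rows, with a median log2 difference of 0.00 against 0.04. By direction, 4.08% of measured rows were higher and 3.41% lower. Because the choice of genes was not blind to the data, these shares are description only. Of the 10 higher genes, 6 were TGF-beta targets, among them CDKN1A, which is also a p53 target. The others lay among the BMP targets, the partners and the restraints. The ligands, receptors and SMADs had none with separate intervals. With 7.5% of all measured rows separate, none among so few genes is not a result about these roles.

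Among the ligands, INHBA, which encodes the activin A subunit, was the most abundant, at 44.3 FPKM in control and 37.0 FPKM with BMH-21. TGFB1 was at 24.0 FPKM in control and 24.3 FPKM with BMH-21. TGFB3 was at 1.03 FPKM in control and 1.62 FPKM with BMH-21, overlapping although its difference of 0.37 ± 0.30 exceeded the half-width. All 4 measured TGF-beta and activin ligands of 11 listed and all 5 measured BMP ligands of 18 listed overlapped. BMP ligands were low, the highest being BMP8B at 4.97 FPKM in control and 4.52 FPKM with BMH-21. BMP7 was at 0.854 FPKM (bounds 0.615 to 1.09) in control and 1.41 FPKM (bounds 1.06 to 1.75) with BMH-21, BMP4 at 1.17 FPKM in control and 1.38 FPKM with BMH-21, and BMP2 at 1.89 FPKM in control and 1.64 FPKM with BMH-21. BMP6 was listed at 1.54 FPKM in control and 0.719 FPKM with BMH-21, but both lower bounds were 0.

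Of 18 extracellular antagonists, 6 were measured, and 2 were lower with separate intervals, as were 3.41% of all measured rows. FST (follistatin), which binds activins, was 1.71-fold lower, at 41.0 FPKM with BMH-21 (33.4 to 48.7) and 70.3 FPKM in control (57.6 to 83.0). CHRDL1, a chordin-like BMP antagonist, was 1.69-fold lower, at 9.23 FPKM with BMH-21 (7.46 to 11.0) and 15.6 FPKM in control (12.7 to 18.5). TWSG1, which modulates BMPs outside the cell, and the BMP antagonist NBL1 had the highest differences, at 0.18 ± 0.36 and 0.14 ± 0.55, with overlapping intervals.

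None of the 11 measured receptor genes had separate intervals, against 7.5% of all measured rows, so the absence is not a result about receptors. Estimates of 8 lay below control, as did 44.6% of all measured rows. TGFBR2, the type II TGF-beta receptor, was at 11.3 FPKM in control and 7.94 FPKM with BMH-21, a difference of -0.46 ± 0.35. ENG (endoglin), a co-receptor, was at 15.3 FPKM in control and 13.1 FPKM with BMH-21. At the other end were the type I receptor TGFBR1, at 9.29 FPKM in control and 10.2 FPKM with BMH-21, and the activin receptor ACVR2A, at 2.83 FPKM in control and 3.32 FPKM with BMH-21. Of the SMADs that carry the signal, SMAD5 was the most abundant, at 20.5 FPKM in control and 25.3 FPKM with BMH-21. SMAD1 was at 3.53 FPKM in control and 2.61 FPKM with BMH-21, and SMAD9 was under 1 FPKM in both groups. SMAD2 was at 14.8 FPKM in control and 12.9 FPKM with BMH-21, SMAD3 at 13.0 FPKM in control and 11.6 FPKM with BMH-21, and SMAD4 at 11.8 FPKM in control and 12.3 FPKM with BMH-21. All 5 measured SMADs of this kind overlapped, and the BMP-type sum (SMAD1, SMAD5 and SMAD9) was 2.05 times the sum of SMAD6 and SMAD7 in control and 2.57 times with BMH-21.

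Of 16 other intracellular restraints, all measured, 1 had separate intervals, near the share of 7.5% over all measured rows. TOB1, an antiproliferative protein that binds SMADs, was 1.53-fold higher, at 17.6 FPKM with BMH-21 (14.2 to 20.9) and 11.5 FPKM in control (9.14 to 13.8). TGIF1, a co-repressor of SMADs, was next, at 33.2 FPKM against 25.4 FPKM in control, with overlapping intervals. SKI, the paralogue of SKIL, was lowest, at 9.49 FPKM against 12.3 FPKM in control, followed by TGIF2 at 17.3 FPKM against 20.6 FPKM in control. These also overlapped.

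Targets of TGF-beta other than the members had 6 higher and 1 lower gene with separate intervals among 15 measured, and 8 that overlapped. Over all measured rows, 4.08% were higher and 3.41% lower with separate intervals. The list's median log2 difference of 0.15 turned to -0.01 without the filter on low values and to -0.06 at 5 FPKM or more. The highest was CDKN1A, the p21 gene, 9.81-fold higher at 329 FPKM against 33.5 FPKM in control, which is also a p53 target and on the list used to check the treatment. ACTA2, smooth muscle actin, was 4.81-fold higher, at 11.7 FPKM with BMH-21 (6.88 to 16.5) and 2.44 FPKM in control (1.41 to 3.46). The higher genes also included the cytokine gene IL11, ANGPTL4 and the transcription factor gene SNAI2. IL11 was at 16.2 FPKM against 6.68 FPKM in control. The lower gene was LMCD1, a LIM-domain protein, at 7.38 FPKM against 13.2 FPKM in control, and BHLHE40, itself a basic helix-loop-helix repressor, came next at 7.34 FPKM against 9.94 FPKM in control, overlapping.

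Markers of other cell types moved beside these targets in part. Of 6 fibroblast markers, 3 were measured and 2, DCN and LUM, which encode matrix proteoglycans, were higher with separate intervals. The share higher with separate intervals over all measured rows was 4.08%. DCN was at 2.50 FPKM against 0.419 FPKM in control and LUM at 5.23 FPKM against 2.34 FPKM in control. The remaining measured marker, PDGFRA, was at 1.02 FPKM against 1.22 FPKM in control, overlapping. The whole fibroblast list summed to 4.71 FPKM in control and 9.34 FPKM with BMH-21, a rise that lay in DCN and LUM. None of the 6 was at 0, and the collagen genes COL1A1, COL1A2 and COL3A1 were under 1 FPKM in both groups. None of the measured markers of keratinocytes (2 of 7), endothelium (1 of 6) or leukocytes (2 of 6) had separate intervals. With 7.5% of all measured rows separate, none among so few genes is not a result about these cell types. The leukocyte marker CD68, at 9.96 FPKM against 14.7 FPKM in control, overlapped although its difference of -0.52 ± 0.38 exceeded the half-width. The part of these markers in the differences of the targets was not tested.

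Against 4.08% higher and 3.41% lower over all measured rows, BMP targets other than the members had 2 higher genes with separate intervals and none lower among 7 measured of 15 listed. They were the homeobox genes DLX2, at 6.00 FPKM with BMH-21 (4.65 to 7.35) and 2.83 FPKM in control (2.09 to 3.57), and MSX2, at 2.87 FPKM with BMH-21 (2.16 to 3.57) and 1.51 FPKM in control (1.07 to 1.95). HEY1, a repressor also driven by Notch, was at 1.06 FPKM against 1.82 FPKM in control and GATA2 at 3.88 FPKM against 4.32 FPKM in control, both overlapping. BMP-responsive genes thus stood on both sides of control, ID1, ID4, SMAD6 and HEY1 in estimate below it and ID2, DLX2, MSX2 and SMAD7 above it, of which ID1, ID4, ID2, DLX2 and MSX2 had separate intervals.

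**Figure D5:**
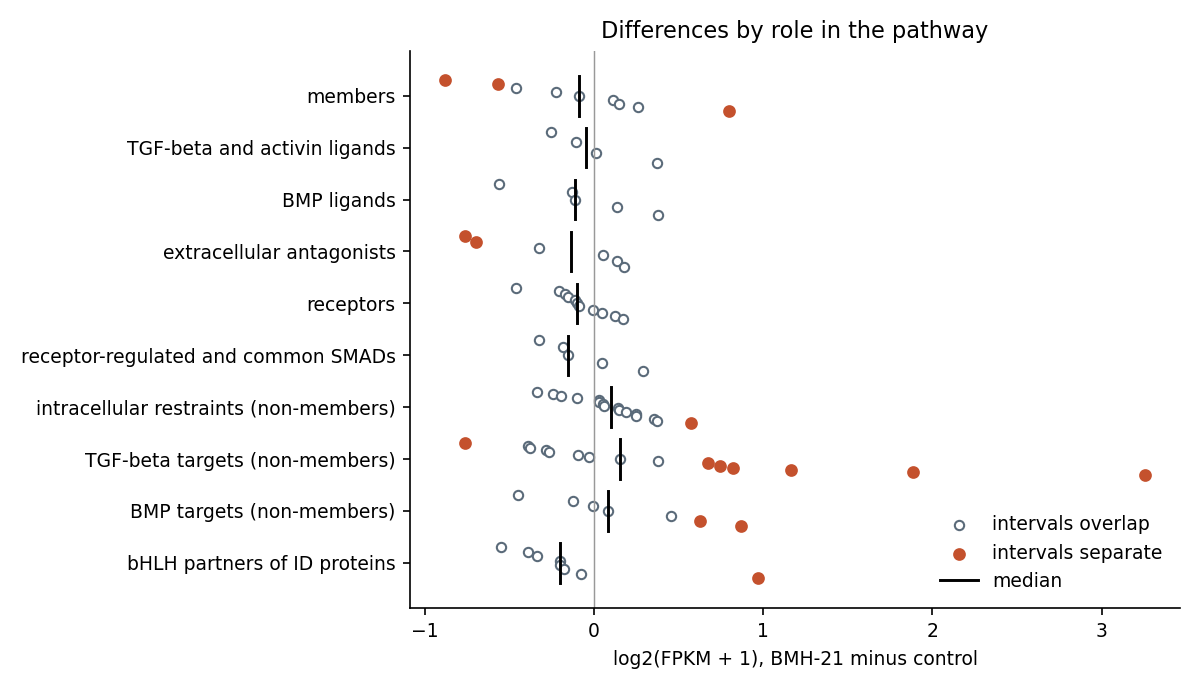
Difference in log2(FPKM + 1), BMH-21 minus control, for every measured gene of the members and of 9 pathway lists, 1 point a gene, filled where the intervals were separate, with the list median as a bar. Ligands, receptors and signal-carrying SMADs show open points only, extracellular antagonists hold 2 filled points below 0, and the TGF-beta targets spread furthest, up to 3.26 for CDKN1A.

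In GENCODE release 29, ID2 and ID4 each overlap an antisense gene, and SMAD6 contains a gene within an intron on its own strand. None of these 3 has a row of that name in the table. The library kit keeps strand, per the labels' protocols, but no source used here says whether the counting used it, so reads from an antisense partner cannot be set apart for ID2 and ID4, both of which had separate intervals.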

How the data were processed

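A375 cells were profiled in 6 samples, 3 controls and 3 with BMH-21, grouped by title. The authors deposited FPKM values. TopHat2, Cuffdiff 2.0 and GRCh37 appear in the submitters' processing notes without roles or settings, and no source used here gives the annotation. All 6 value columns were used, read as an estimate and 2 bounds per group (midpoint within a relative tolerance of 0.0001). FPKM holds no read totals, so depth is unknown.

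Differences were computed on log2(FPKM + 1) with Python 3.11.15 and pandas 2.3.3, on the authors' scaling. Half-widths of control and BMH-21 on that scale were combined in quadrature. In 11 measured rows the estimate lay outside its bounds, and these were not called. The calculation was tested on simulated data. Members and lists were chosen with earlier results of these data known. Genes named are the members, up to 2 highest and 2 lowest per list, the E proteins and the signal-carrying SMADs, MDM2 and CDKN1A, and the 3 rows nearest to ID4. Lineage markers, INHBA, TGFB1, BMP4, BMP8B, TWIST1, IL11, ANGPTL4 and SNAI2 were named after their values were seen, and 1 listed gene is not reported here. Alternatives were 3 scalings, another pseudocount, 2 filters and 2 call rules. RefSeq promoter windows (GRCh38.p14) were found for all 9 members, and their build differs from that of the table.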

Additional observations from a re-analysis of the deposited data

How the results depend on the processing

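The directions of all 9 members held under median ratio scaling, quantile normalization, equal sums without short RNA rows, a pseudocount of 0.1 and no filter, and ID1, ID2 and ID4 kept separate intervals in each. Median ratio scaling and equal sums multiply the BMH-21 values by 0.973 and 0.957, which moves the nearly touching intervals of ID1 further apart, and no alternative that raises the BMH-21 values was run. At 5 FPKM or more, ID2 and ID4 are left out, so 0 members were higher and 1, ID1, was lower, with 6 pathway genes higher and 283 rows lower overall. With a call where the difference exceeds its half-width, SMAD6 joined the lower members, 9 pathway genes were lower, and 1001 rows were higher and 953 lower. With a call at 2-fold, 0 members were higher and 0 lower, 3 pathway genes were higher and 0 lower, and 223 rows were higher and 86 lower. Equal sums without short RNA rows made 5 pathway genes lower. All 3 scalings turned the split of all rows, from 534 higher and 446 lower to 428 and 563 under equal sums, 470 and 499 under median ratio scaling, and 470 and 507 under quantile normalization, and turned the median of all rows below 0. No paired analysis was possible because the columns hold 1 estimate and its bounds for each group, not libraries, and for the same reason no replicate could be left out. The unknown depth and the width of the bounds limit what can be told for ID2 and ID4, which lie under 2 FPKM in 1 group.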
